A study of Mus musculus with 4 samples.

Results

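The RANKL pathway and the osteoclast programme were followed through 10 genes, chosen by symbol among the 32285 genes counted in each cell. The genes were the ligand Tnfsf11, its receptor Tnfrsf11a, its decoy receptor Tnfrsf11b, the growth factor Csf1, the transcription factor Nfatc1, the fusion and acidification genes Ocstamp, Dcstamp and Atp6v0d2, and the resorption enzymes Acp5 and Ctsk. All 10 were found in the gene list of every library, and 74 other genes of the pathway, in 5 lists, were read beside them. The libraries were single-cell RNA-seq of tibial muscle from Nse-Bmp4 mice on a C57BL/6 background, aged 6 to 8 weeks, either uninjured or taken 1, 3 or 7 days after cardiotoxin injury (dpi). The animals of all 4 groups carried the transgene, which expresses the bone-inducing factor Bmp4 from the neuron-specific enolase promoter, so no group without it was compared here. Each group was 1 library made from 3 pooled muscles, so a time point cannot be told apart from its library, no test was possible, and every interval below covers counting error only.

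RANKL, the product of Tnfsf11, is made by osteoblast lineage cells, stromal cells, hypertrophic chondrocytes and activated T cells. It binds RANK, encoded by Tnfrsf11a, on monocyte lineage precursors that are kept alive by M-CSF, the product of Csf1. Signalling through RANK induces NFATc1, which drives the genes for cell fusion and for the acid phosphatase and protease that dissolve bone. Osteoprotegerin, the product of Tnfrsf11b, is a secreted decoy that captures RANKL before it reaches RANK. Heterotopic bone, like skeletal bone, is laid down by mesenchymal cells and remodelled by osteoclasts.

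The deposited barcodes numbered 12031 uninjured and 11722, 15160 and 23752 at 1, 3 and 7 dpi, with 91146335 to 129007669 UMIs (unique molecular identifiers, each 1 captured molecule) per library and a median of 3083 to 8629 per barcode. Of these, 10307, 9641, 12604 and 20301 cells were kept, and 3.29 to 13.7% of the kept cells in a library fell in no class. Cells were sorted into classes by marker genes that included none of the 10 genes described, and MSC lineage is used below for cells with fibroblast and mesenchymal markers (Prrx1, Pdgfra, Col1a1 and others). This class held 8362, 3894, 6615 and 12939 cells in the order uninjured, 1, 3 and 7 dpi. All 4111 cells of the chondrocyte class were in the 7 dpi library. Pairs of libraries shared 30 to 95 barcodes. Markers of granulocyte progenitors, which belong to bone marrow, summed to 12.5 counts per 1000000 UMIs of the library (CPM) uninjured, 1013 at 1 dpi, 925.3 at 3 dpi and 3.18 at 7 dpi, with all 5 of the list detected in each library. An osteoblast marker list stood at 1.95 CPM uninjured and at 19.1, 9.77 and 1722 CPM later. The muscle class held 91 to 380 cells per library, and all 5 muscle fibre markers were detected in each.

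Levels are given as CPM within a class, with 95% Poisson intervals where printed in brackets, and ratios between libraries carry 95% conditional binomial intervals. CPM is not divided by transcript length, so genes are not ranked against each other. A ratio was counted as past the threshold when it was at least 2-fold with at least 20 UMIs in the 2 libraries together. Because depth per cell fell across the series, shares of cells with a UMI are also given after thinning each cell to 1000 UMIs.

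The start-site windows of 3 genes are shown because they belong to the ligand and to the pair of enzymes that the later sections follow. RefSeq start sites on GRCm38.p6 were matched for 5 of the 10 genes (Tnfsf11, Tnfrsf11a, Csf1, Acp5 and Ctsk). Each window runs from 250 bases before to 50 bases after the start, 5′ to 3′ on the gene's strand, with matches to the searched motifs in capitals. The Tnfsf11 window, at chr14:78307994-78308293 on the minus strand, holds a TATA box read on the opposite strand.
Tnfsf11: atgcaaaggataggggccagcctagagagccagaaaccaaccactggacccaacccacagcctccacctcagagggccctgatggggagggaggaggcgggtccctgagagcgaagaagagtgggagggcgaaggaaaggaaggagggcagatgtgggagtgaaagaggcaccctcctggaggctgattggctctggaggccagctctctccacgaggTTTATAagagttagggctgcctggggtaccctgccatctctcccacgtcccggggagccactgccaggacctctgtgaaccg
For Acp5, RefSeq lists 3 starts, and only the window at chr9:22130549-22130848 on the minus strand held any of the motifs. Its capitals mark an NFAT core read on the opposite strand, followed by the E-box letters TCACATGA known for MITF.
Acp5: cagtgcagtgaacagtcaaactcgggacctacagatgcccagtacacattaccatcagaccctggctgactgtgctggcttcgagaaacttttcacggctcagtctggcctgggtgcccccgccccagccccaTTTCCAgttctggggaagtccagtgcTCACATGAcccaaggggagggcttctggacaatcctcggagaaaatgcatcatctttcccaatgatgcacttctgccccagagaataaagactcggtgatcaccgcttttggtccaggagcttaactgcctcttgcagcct
The Ctsk window, at chr3:95498960-95499259 on the plus strand, has a PU.1 core, the same core on the opposite strand, and an NFAT core on the opposite strand at the start site.
Ctsk: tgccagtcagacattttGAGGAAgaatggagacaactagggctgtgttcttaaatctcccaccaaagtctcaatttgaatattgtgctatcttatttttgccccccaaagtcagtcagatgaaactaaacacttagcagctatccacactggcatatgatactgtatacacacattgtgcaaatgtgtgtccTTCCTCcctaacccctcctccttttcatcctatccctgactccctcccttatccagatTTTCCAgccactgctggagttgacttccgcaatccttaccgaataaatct
These letters are common. Among 32851 start-site windows of 300 bases, read on both strands, the NFAT core TGGAAA was in 21.4%, the PU.1 core GAGGAA in 28.3%, the TATA box TATAAA in 13.6% and TCACATGA in 0.986%. The shorter E-box CACATG, which overlaps TCACATGA, was in 14.2%, the AP-1 letters TGANTCA in 7.81% and the Runx core ACCACA in 16.8%. The windows of Tnfrsf11a and Csf1 and the other Acp5 windows held none of the 7 motifs, and a match or its absence says only that these letters are or are not there.

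Tnfsf11 (chr14:78277445-78308043, minus strand, GRCm38) was close to absent from MSC lineage cells of uninjured muscle and was present at 3 and 7 dpi. Its UMIs in that class were 10, 32, 242 and 534 uninjured and at 1, 3 and 7 dpi, or 0.127 (0.0611–0.234), 0.896 (0.613–1.27), 4.27 (3.75–4.84) and 7.96 (7.30–8.66) CPM. The level at 3 dpi was 33.5 times that of the uninjured library (17.9–70.8), and the level at 7 dpi was 62.5 times (33.7–131). Both folds stand on the 10 uninjured UMIs, 9 of them in 5 cells, and for 7 dpi the fold was 12.7 with no cell filter, 30.7 after thinning and 160 by the mean share per cell. From 3 to 7 dpi the ratio was 1.86 (1.60–2.18), short of 2-fold at full depth and 2.56 after thinning. The share of MSC lineage cells with a UMI was 0.0718, 0.257, 2.31 and 3.40%, and 0.0239, 0.103, 0.286 and 0.725% after thinning. Both series of shares were in the same order as the CPM. Monocytes and macrophages, which are not a known source of RANKL, gave the background, with 1, 0, 1 and 0 UMIs in 180, 1520, 730 and 208 cells, at median depths of 7066, 7657, 4858 and 3920 UMIs against 9151, 8042, 5463 and 3114 in the MSC lineage. Their shares were 0.556, 0, 0.137 and 0%. The uninjured background is 1 UMI in 180 cells, too few to place the uninjured MSC lineage share of 0.0718% at or above it.

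The 1 dpi value rested on a few cells. Of its 32 UMIs, 29 were in 19 cells that also carried the osteoblast genes Sp7 or Ibsp, where they reached 174 CPM (116–249), and the 5 richest cells held 27. Without those cells the 1 dpi level was 0.0844 CPM (3 UMIs in 3875 cells) against 0.128 uninjured, a ratio of 0.662 (0.117–2.57) in place of 7.03 (3.37–16.04). With no cell filter the 1 dpi ratio was 1.502. Values at 3 and 7 dpi without Sp7 and Ibsp cells were 4.12 and 7.44 CPM, so the later levels were little changed. The osteoblast list and the granulocyte progenitor list, given above, were also higher at 1 dpi than uninjured, and their part in the 1 dpi value was not tested.

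Lymphocytes were the other source of Tnfsf11. NK and T cells had 15, 93, 55 and 38 UMIs, or 8.59 (4.81–14.2), 22.3 (18.02–27.4), 14.0 (10.6–18.3) and 17.0 (12.1–23.4) CPM. Their 1 dpi level was 2.60 times the uninjured level (1.499–4.83), and the intervals of the 3 later libraries overlapped. Per UMI, NK and T cells exceeded the MSC lineage in all libraries, by 67.4 times uninjured (28.3–168), 24.9 at 1 dpi (16.5–38.5), 3.29 at 3 dpi (2.41–4.42) and 2.14 at 7 dpi (1.499–2.98). Within the class, cells with Cd3e and Cd4 had 24.1 CPM uninjured (2 UMIs), 56.2 at 1 dpi (39.2–78.2), 82.5 at 3 dpi (49.7–129) and 7.27 at 7 dpi (1 UMI). Cells with Trdc, the constant chain of the gamma-delta T cell receptor, had 14.6, 69.0 (37.7–116), 11.4 and 61.6 (26.6–121) CPM from 1, 14, 3 and 8 UMIs. NK cells, called by Klrb1c or Ncr1 without Cd3e, had 0, 0, 4 and 2 UMIs, and cells with Cd3e and Cd8a had 1, 4, 0 and 0. Of these 4 subsets, either the Cd4 or the Trdc cells had the highest level in each library, at counts too low to order the time points. Most of the 15 uninjured UMIs and of the 38 at 7 dpi lay in none of these subsets.

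The class that held most of the ligand changed along the series. Unclassified cells held 42.9% of the 49 Tnfsf11 UMIs uninjured, NK and T cells held 52.5% of 177 at 1 dpi, and MSC lineage cells held 71.4% of 339 at 3 dpi and 79.1% of 675 at 7 dpi. These shares depend on how many cells of each class were captured as well as on the level per cell.

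**Figure D1:**
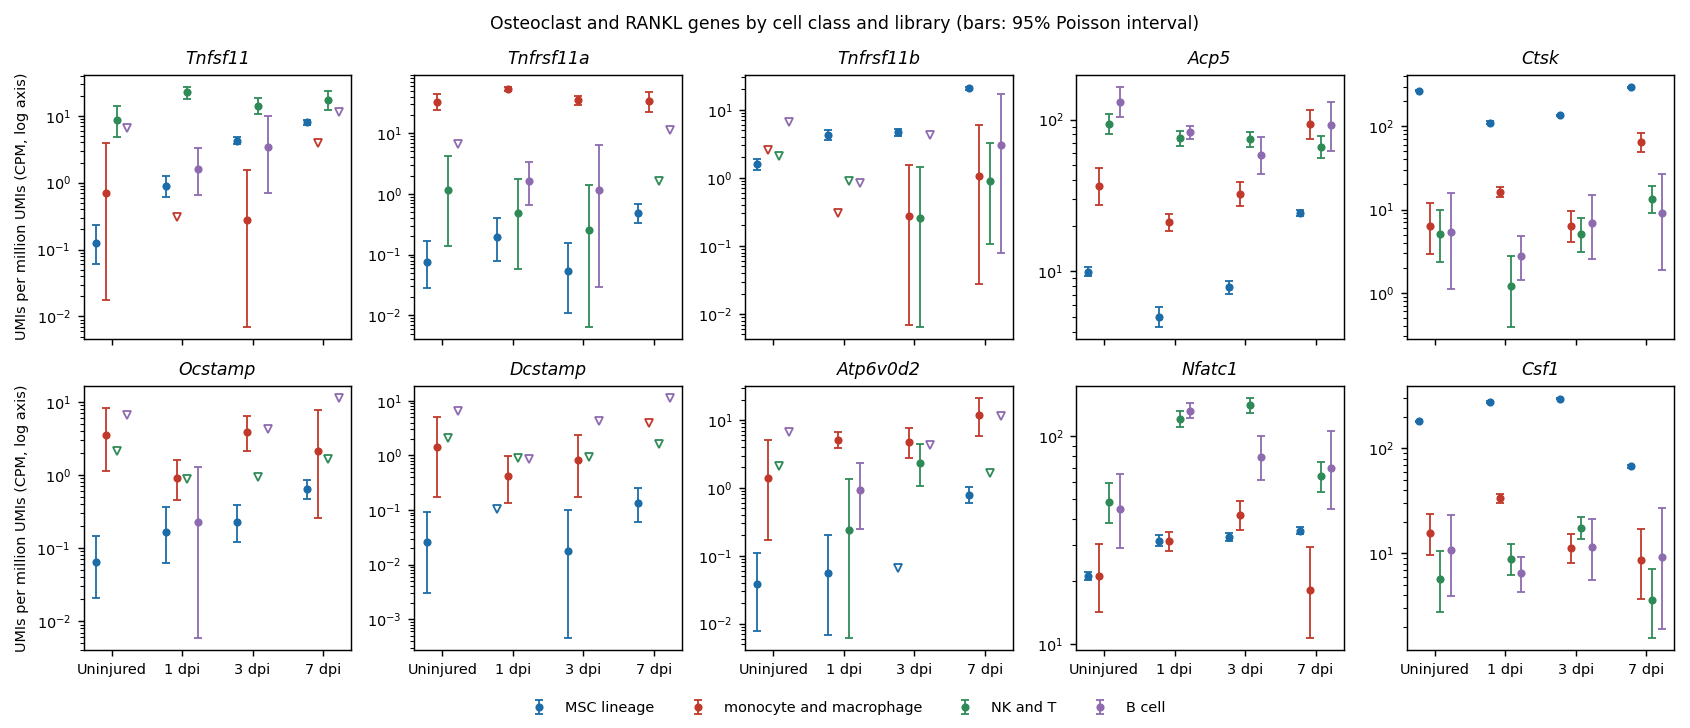
Level (CPM, log axis) of each of the 10 genes in the uninjured, 1, 3 and 7 dpi libraries, in 4 cell classes; points are class totals of 1 library, bars are 95% Poisson intervals, and open triangles mark the upper limit where no UMI was seen. Tnfsf11 in the MSC lineage climbs from 0.127 to 7.96 CPM, Tnfrsf11a sits between 32.5 and 54.1 CPM in monocytes and macrophages, and Ctsk and Csf1 are highest in the MSC lineage among these classes.

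At 7 dpi Tnfsf11 was spread over the mesenchymal subsets. Cells with both Lrrc15 and Tnn, a pair of genes of activated fibroblasts, had 11.5 CPM against 6.35 in the other MSC lineage cells, a ratio of 1.81 (1.52–2.15). Cells with both Sp7 and Ibsp, the osteoblast pair, had 10.9 CPM against 7.44 in cells with neither, a ratio of 1.47 (1.07–1.98). Adventitial-type cells with Pi16 and Dpp4 had 2.31 CPM (1.11–4.25), cells with Smoc2 and Col15a1 6.69 (5.35–8.27) and cells with the tendon gene Tnmd 8.13 (6.44–10.1). The Pi16 and Dpp4 cells were the lowest of these 5 subsets and their interval did not overlap the other intervals. Chondrocytes had 4.33 CPM, 0.544 times the MSC lineage (0.428–0.684). Among them, cells with at least 3 UMIs of Col10a1, the collagen of hypertrophic cartilage, had 7.52 CPM against 3.93 in cells with none, a ratio of 1.91 (1.16–3.09). No ratio printed in this paragraph reached 2-fold. The levels of the Pi16 and Dpp4 cells, 2.31 CPM, and of the other MSC lineage subsets, 6.69 to 11.5 CPM, lay further apart than that.

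Tnfrsf11b (chr15:54250619-54278484, minus strand), the decoy receptor, was also higher after injury in the MSC lineage, with its largest step between 3 and 7 dpi. Its UMIs were 124, 153, 266 and 1401, or 1.58 (1.31–1.88), 4.28 (3.63–5.02), 4.69 (4.15–5.29) and 20.9 (19.8–22.0) CPM. The ratio to the uninjured library was 2.71 at 1 dpi, 2.97 at 3 dpi and 13.2 at 7 dpi (10.99–16.01), and 7 dpi was 4.45 times 3 dpi (3.90–5.09). With no cell filter the 1 and 3 dpi ratios were 1.77 and 1.45, under 2-fold, and the 7 dpi ratio 7.73, and with filter limits set on linear counts the 1 dpi ratio was 1.505. After thinning the 7 dpi ratio was 37.9, which stands on very few uninjured UMIs, at a thinned share of 0.0598% of 8362 cells. The 1 and 3 dpi intervals overlapped. Shares of cells with a UMI were 1.11, 1.95, 2.71 and 6.94%, and 0.0598, 0.309, 0.3499 and 2.11% after thinning. NK and T cells, which gave the background, had 0, 0, 1 and 2 UMIs, or at most 0.231% of cells, at median depths of 2099 to 4237 UMIs.

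Tendon cells of uninjured muscle carried the highest decoy level. The 56 cells of the tenocyte class had 52 UMIs, or 93.2 CPM (69.6–122), which was 59.0 times the MSC lineage of the same library (41.9–82.2), although 43 of the 52 were in 5 cells. Tenocytes of 1, 3 and 7 dpi had 22.4, 6.14 and 30.3 CPM from 4, 2 and 23 UMIs. At 7 dpi the ratio to the MSC lineage was 1.45 (0.917–2.19), an interval that includes equality. Cells with Pi16 and Dpp4 had more decoy than cells with Smoc2 and Col15a1 in the uninjured library, 2.39 against 0.894 CPM (ratio 2.67, 1.82–3.99), and reached 76.7 CPM (68.6–85.4) against 16.5 (14.4–18.9) at 7 dpi. The 7 dpi subset with both Sp7 and Ibsp had 38.0 CPM (ratio to cells with neither 2.20, 1.86–2.60), while cells with Lrrc15 and Tnn had 12.5 against 24.7 in the rest (0.504, 0.439–0.577). The subset highest for the decoy at 7 dpi was thus the lowest for the ligand. Chondrocytes had 27.6 CPM (25.4–30.0), with 17.0 in cells with at least 3 Col10a1 UMIs and 30.6 in cells with none (0.555, 0.418–0.728).

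**Figure D2:**
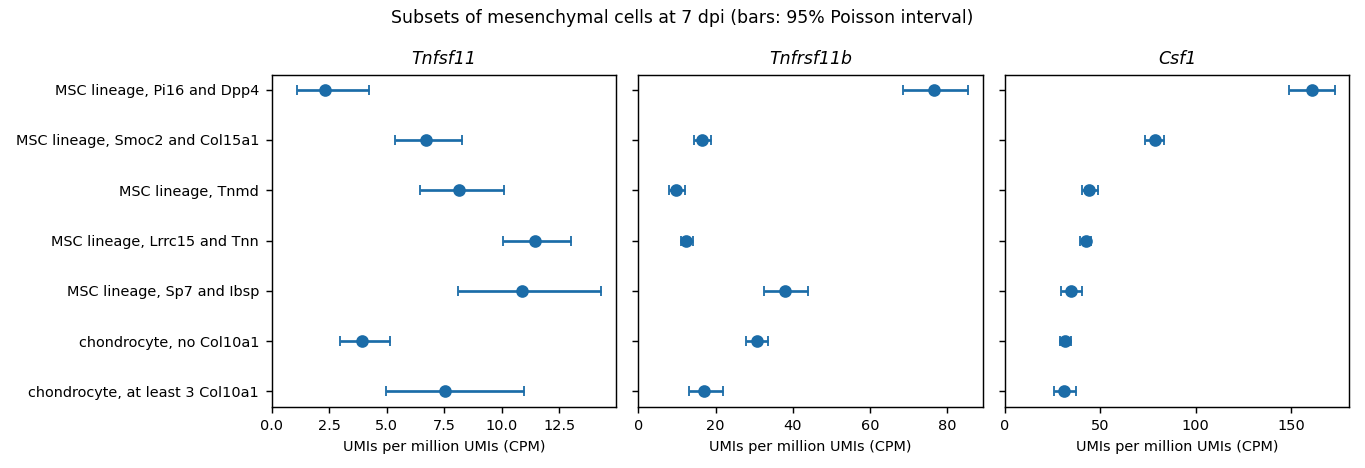
CPM (linear axis) of Tnfsf11, Tnfrsf11b and Csf1 in 5 subsets of MSC lineage cells and 2 subsets of chondrocytes at 7 dpi; points are subset totals and bars are 95% Poisson intervals. The Pi16 and Dpp4 cells are lowest for Tnfsf11 at 2.31 CPM and highest for Tnfrsf11b at 76.7 and Csf1 at 161 CPM.

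The count of ligand per decoy within the MSC lineage was not touched by any scaling between libraries. There were 0.0807 Tnfsf11 UMIs per Tnfrsf11b UMI uninjured (0.0377–0.153), 0.209 at 1 dpi (0.138–0.308), 0.910 at 3 dpi (0.761–1.09) and 0.381 at 7 dpi (0.344–0.421). The interval at 3 dpi lay above those of the other 3 libraries, and the interval at 7 dpi lay above the uninjured and 1 dpi ones. The 7 dpi value is a mixture of unlike subsets. Cells with Lrrc15 and Tnn had 242 ligand and 263 decoy UMIs, and the other MSC lineage cells 292 and 1138. The part of the make-up of the class in the difference between 3 and 7 dpi was not tested. The uninjured value rests on 10 ligand UMIs and was 0.227 with no cell filter, beside 0.374 at 7 dpi. Without cells that carried Sp7 or Ibsp the 1 dpi value was 0.0199 (0.00405–0.0592) and the 7 dpi value 0.431. Chondrocytes at 7 dpi had 0.157 (0.123–0.197), under the MSC lineage. Few MSC lineage cells carried both transcripts. None did uninjured or at 1 dpi, 7 did at 3 dpi against 4.14 if the genes were independent, and 24 did at 7 dpi against 30.5.

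**Figure D3:**
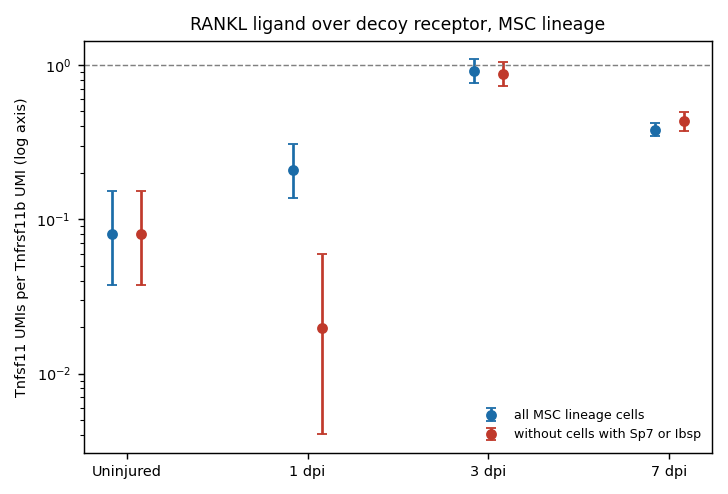
Tnfsf11 UMIs per Tnfrsf11b UMI (log axis) in MSC lineage cells of the 4 libraries, for all cells and without cells carrying Sp7 or Ibsp; bars are 95% conditional binomial intervals and the dashed line marks equal counts. The value peaks at 3 dpi at 0.910, next to the line, and the 1 dpi point drops from 0.209 to 0.0199 without the Sp7 or Ibsp cells.

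Tnfrsf11a (chr1:105780718-105847981, plus strand), the receptor, was read first in monocytes and macrophages, the class of osteoclast precursors. They had 46, 655, 126 and 31 UMIs, or 32.5 (23.8–43.4), 54.1 (50.05–58.4), 34.8 (28.9–41.4) and 33.3 (22.6–47.2) CPM. The 1 dpi level was 1.67 times the uninjured level (1.23–2.30), and 3 dpi was 0.642 times 1 dpi. The uninjured, 3 and 7 dpi intervals overlapped, and no ratio between time points reached 2-fold at full depth. After thinning, the ratios to uninjured were 5.10, 3.22 and 3.55 at 1, 3 and 7 dpi. The share of cells with a UMI was 21.1, 30.5, 14.5 and 10.6%, and 1.11, 4.94, 3.43 and 3.94% after thinning. The thinned uninjured share is 1.11% of 180 cells, so the thinned ratios stand on very few UMIs and do not place the uninjured library. MSC lineage cells had 0.0764, 0.196, 0.0529 and 0.477 CPM, which were read as background, and macrophages exceeded them by 69.8 to 657 times. Dendritic cells had 7.69, 13.2, 11.8 and 7.49 CPM. Mural cells, which surround vessels, had 24.1 (15.8–35.4), 34.6, 57.3 and 4.56 CPM from 26, 7, 9 and 7 UMIs.

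Within the macrophage class, Tnfrsf11a was split by maturation markers. Cells with all of C1qa, C1qb and C1qc, complement genes of mature macrophages, had 55.5, 60.9, 38.1 and 48.4 CPM. Cells with the monocyte gene Ly6c2 and without that triple had 5.36, 52.3, 17.7 and 7.39 CPM, from 2, 336, 9 and 2 UMIs. The ratio of the first to the second was 10.4 uninjured (2.65–89.0), 2.16 at 3 dpi (1.09–4.86) and 6.56 at 7 dpi (1.59–57.9), but 1.17 at 1 dpi (0.992–1.37). At 1 dpi monocyte-type and mature-type cells therefore did not differ beyond counting error. The granulocyte progenitor signal was highest in the 1 dpi library, at 1013 CPM, with 925.3 CPM at 3 dpi. The part of that signal in the receptor level was not tested.

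Csf1 (chr3:107741048-107760469, minus strand), the macrophage growth factor, was mainly a transcript of the MSC lineage, which held 82.5 to 98.5% of its UMIs. The class had 14239, 9806, 16884 and 4515 UMIs, or 181 (178–184), 275 (269–280), 298 (293–302) and 67.3 (65.3–69.3) CPM. The 7 dpi level was 2.70-fold lower than the uninjured level (2.61–2.79) and 4.43-fold lower than at 3 dpi (4.28–4.58), while 1 and 3 dpi lay above uninjured by less than 2-fold. Shares of cells with a UMI were 68.8, 66.2, 63.1 and 22.3%, and 16.01, 18.3, 21.6 and 6.09% after thinning, so 7 dpi was lowest both ways while the order of the other libraries turned. At 7 dpi Csf1 was thus at its lowest and Tnfsf11 at its highest level of the 4 libraries in this class. Cells with Pi16 and Dpp4 had 234 CPM uninjured against 138 in cells with Smoc2 and Col15a1 (ratio 1.69, 1.64–1.75), and 161 against 78.5 at 7 dpi. Within each subset 7 dpi was under uninjured by less than 2-fold, a smaller fall than in the whole class. Cells with Sp7 or Ibsp numbered 4 of 8362 uninjured and 4422 of 12939 at 7 dpi. Without them the class had 181 CPM uninjured and 72.7 at 7 dpi. The part of the make-up of the class in its fall was not tested. Cells with Lrrc15 and Tnn had 42.3 against 78.7 in the rest at 7 dpi (0.538, 0.499–0.579), and chondrocytes had 32.4 CPM, 0.481 times the MSC lineage (0.442–0.522). Monocytes and macrophages had 15.5, 33.6, 11.3 and 8.58 CPM, with 1 dpi 2.16-fold above uninjured, a ratio that was 1.66 after thinning and 1.24 with a stricter gate on the class.

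Nfatc1, on chromosome 18, encodes the transcription factor that RANK signalling induces in osteoclast precursors, and it also serves lymphocytes and endothelium. Its highest levels in the larger classes were in lymphocytes. NK and T cells had 48.1 (38.4–59.5), 122 (111–133), 141 (129–153) and 64.1 (54.0–75.5) CPM, so 1 and 3 dpi were past 2-fold over uninjured. B cells had 44.5, 133, 79.4 and 70.5 CPM. Both lymphocyte classes were higher at 1 dpi, in libraries that also carried marrow progenitor markers, and the part of those markers was not tested. The monocyte and macrophage class as a whole had 21.2 (14.3–30.3), 31.1 (28.1–34.5), 41.6 (35.3–48.8) and 18.2 (10.6–29.2) CPM. Its 3 dpi level was 1.96 times uninjured (1.32–3.01), and 7 dpi was 2.28-fold lower than 3 dpi (1.38–4.02). MSC lineage cells had 21.2, 31.4, 32.8 and 35.1 CPM, with 7 dpi at 1.65 times uninjured, and chondrocytes had 48.5 CPM. No Nfatc1 ratio between time points reached 2-fold in the MSC lineage.

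The fusion genes were scarce. Ocstamp (chr2:165393760-165400405, minus strand) and Dcstamp (chr15:39745930-39760938, plus strand) encode membrane proteins needed for precursors to fuse, and Atp6v0d2 (chr4:19876841-19922605, minus strand) encodes a proton pump subunit enriched in osteoclasts. Over all kept cells Ocstamp had 24, 31, 91 and 89 UMIs, Dcstamp 30, 16, 22 and 25, and Atp6v0d2 5, 74, 58 and 187. Dcstamp lay mostly in cells of no class (60 to 83.3% of its UMIs), and its level over all kept cells, 0.334, 0.224, 0.253 and 0.253 CPM, had overlapping intervals in all libraries. Ocstamp over all kept cells was 0.267 (0.171–0.397), 0.434 (0.295–0.616), 1.05 (0.842–1.28) and 0.901 (0.724–1.11) CPM, so 3 and 7 dpi lay above uninjured and 1 dpi. Atp6v0d2 over all kept cells was 0.0556, 1.03, 0.667 and 1.89 CPM. At 1 dpi 62 of its 74 UMIs were in 41 macrophages, whereas at 7 dpi 94 of 187 were in cells of no class, 86 of them in 5 cells.

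Ctsk (chr3:95499256-95509362, plus strand), the collagen-degrading protease cathepsin K, is known as an osteoclast enzyme, but the MSC lineage held 77.2 to 98.1% of its UMIs here. MSC lineage cells had 20985, 3948, 7649 and 19839 UMIs, or 267 (264–271), 110.5 (107–114), 135 (132–138) and 296 (292–300) CPM. The 1 dpi level was 2.42-fold lower than uninjured (2.34–2.50), and 7 dpi stood at 1.11 times uninjured. Shares of cells with a UMI were 78.2, 51.3, 51.5 and 54.7%, and after thinning 21.9, 10.3, 13.4 and 22.6%, so the order of the uninjured and 7 dpi libraries turns with depth. Tenocytes had the highest levels, 504, 353, 276 and 479 CPM, and chondrocytes had 208. B cells, which should lack the gene, had 5.34, 2.76, 6.90 and 9.19 CPM. Monocytes and macrophages had 6.36, 16.3, 6.34 and 64.4 CPM, of which the uninjured and 3 dpi values were at that background. Of the 60 UMIs behind the 7 dpi value, 46 were in 1 cell, and without it the level was 15.1 CPM (8.27–25.4).

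Acp5 (chr9:22126727-22135711, minus strand), the tartrate-resistant acid phosphatase, was found in lymphocytes, macrophages and MSC lineage cells, the last having the lowest CPM of these in each library. B cells had 132, 82.4, 58.7 and 91.9 CPM and NK and T cells 93.9, 75.4, 74.0 and 66.4. MSC lineage cells had 781, 179, 444 and 1635 UMIs, or 9.95 (9.26–10.7), 5.01 (4.31–5.80), 7.83 (7.12–8.59) and 24.4 (23.2–25.6) CPM, a 7 dpi level 2.45 times the uninjured level. The thinned shares of cells with a UMI were 0.909, 0.489, 0.859 and 2.07%, in the order of the CPM. In the uninjured library cells with Smoc2 and Col15a1 had 14.2 CPM against 3.84 in cells with Pi16 and Dpp4. Monocytes and macrophages had 36.7, 21.1, 32.5 and 93.3 CPM, but 46 of the 87 UMIs at 7 dpi were in 1 cell, the same cell as for Ctsk, and without it the level was 44.3 CPM (31.8–60.1). Cells of no class at 7 dpi had 896 Acp5 UMIs, 769 of them in 5 cells and 428 in 1.

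These rich cells were looked for directly by counting cells with UMIs of several of 6 genes (Acp5, Ctsk, Ocstamp, Dcstamp, Atp6v0d2 and Nfatc1). At least 3 of the 6 were found in 141, 48, 126 and 311 kept cells, or 1.37, 0.498, 1.00 and 1.53%. Most of these were MSC lineage cells (138, 32, 114 and 244), in which Ctsk, Nfatc1 and Acp5 are each detected. After thinning to 1000 UMIs the counts were 0, 0, 2 and 35, with 0.185% (0.129–0.257) at 7 dpi, and 0 cells allow shares of up to 0.0291% uninjured and 0.0312% at 1 dpi by a floor of 3 cells, or 0.0358 and 0.0384% by the Clopper-Pearson limit. With at least 4 of the 6 genes there were 0, 3, 3 and 29 kept cells, the last being 0.143% (0.0957–0.205), and with at least 5 there were 0, 0, 2 and 10. At 7 dpi both the thinned and the stricter count had intervals above those of the other 3 libraries.

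**Figure D4:**
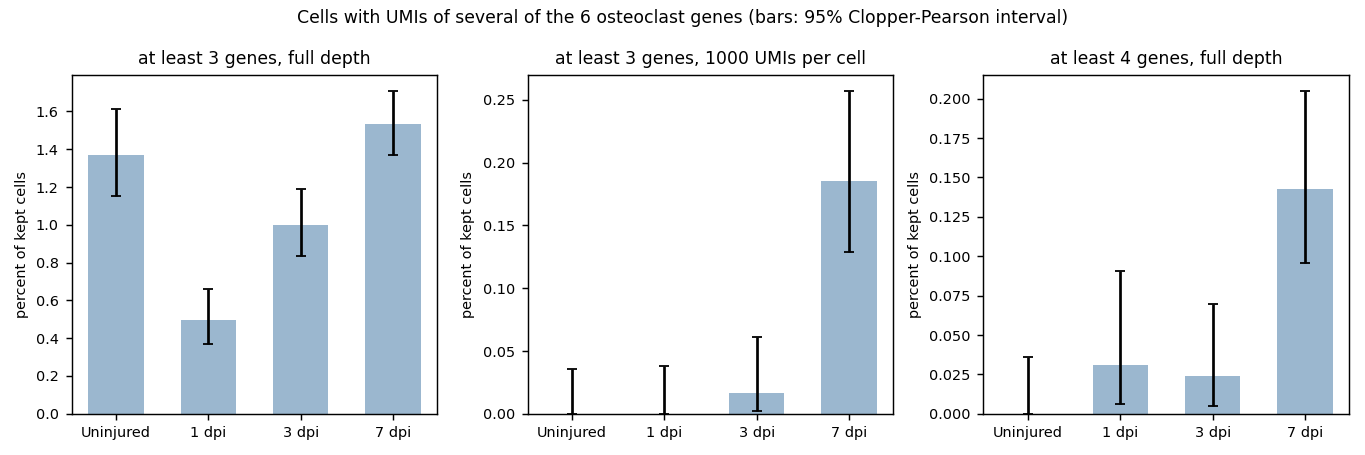
Percent of kept cells in each library with UMIs of several of the 6 osteoclast genes, for at least 3 genes at full depth, at least 3 genes after thinning to 1000 UMIs, and at least 4 genes at full depth; error bars are 95% Clopper-Pearson intervals. The uninjured bar is 1.37% in the first panel and 0 in the other panels, where the 7 dpi bars stand at 0.185 and 0.143%.

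The 29 cells at 7 dpi, chosen by these genes, held 995 of the library's 3199 Acp5 UMIs (31.1%), 129 of 187 Atp6v0d2 UMIs (69.0%), 20 of 25 Dcstamp UMIs (80.0%), 30 of 89 Ocstamp UMIs (33.7%) and 1011 Ctsk UMIs (3.94%), as a description of the choice. Genes outside it were read next. Tnfrsf11a had 19 UMIs in 7 of the 29 cells, or 117 CPM (70.5–183) against 1.24 in the other kept cells. The 5 cells of no class held 16 of these 19, along with 769 of the 995 Acp5, 764 of the 1011 Ctsk and 85 of the 129 Atp6v0d2 UMIs, whereas the 13 placed in the MSC lineage had no Tnfrsf11a and the 10 chondrocytes had 2 UMIs. Tnfsf11 had 2 UMIs, Csf1 had 1 and Tnfrsf11b had 0, whose upper 95% limit of 22.8 CPM includes the 20.3 of the other cells. Leading genes were Mmp9, the gelatinase of osteoclasts and neutrophils, with 297 UMIs in 22 cells, 175 of them in 1 cell and a median of 3 per cell (1831 against 8.13 CPM), the proton pump subunit Atp6v0c (3003 against 281), the myeloid adaptor Tyrobp (1918 against 140) and the creatine kinase Ckb (1677 against 96.1). Csf1r, the receptor for M-CSF, stood at 364 against 10.7 CPM, and Prdm1, a repressor that RANK signalling induces, at 148 against 3.21. Irf8, which restrains osteoclast formation, stood at 18.5 (3.82–54.1) against 22.4 CPM.

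The same 29 cells were placed in the MSC lineage (13), chondrocyte (10), monocyte and macrophage (1) and no class (5), and they had a median of 3507 UMIs. A median of 6 of 8 MSC lineage markers and 1 of 11 macrophage markers was detected in them. The pan-leukocyte gene Ptprc was found in 10, and 26 had at least 1 of Ptprc, Tyrobp, Csf1r and Spi1. Dcn stood at 924.9 against 2432 CPM and Col1a1 at 6456 against 12544, so the matrix transcripts were lower than in the other cells but far above 0. Of 6 osteoclast markers kept apart from the count, Mmp9 was in 75.9% of the cells, Car2 in 20.7%, Itgb3 in 13.8% and Oscar in 10.3%. In the other kept cells these shares were 2.07, 1.5, 6.40 and 0.0789%. Calcr and Siglec15 had no UMI in the 29 cells. Siglec15 had none in any kept cell at 7 dpi, so its absence says nothing about these cells. Calcr stood at 0.558 CPM in the other kept cells, far under its upper limit of 22.8 CPM in the 29, so its absence says nothing either. With fewer than 3 markers at 20% or more, and with markers of another class in most of them, the cells were given no cell type name. Without them Acp5 in the MSC lineage at 7 dpi was 22.9 CPM in place of 24.4.

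**Figure D5:**
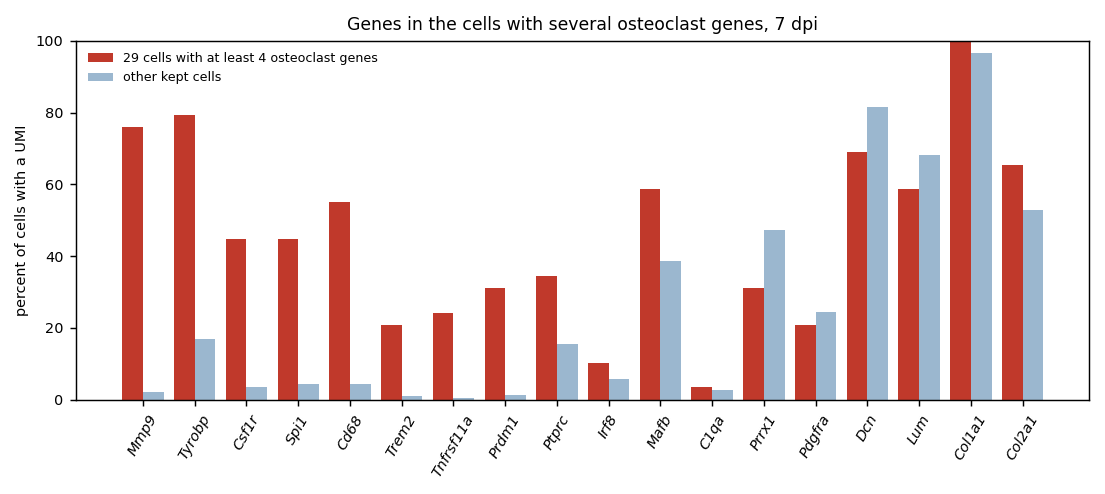
Percent of cells with a UMI of 18 genes that did not enter the choice, in the 29 cells with at least 4 osteoclast genes and in the other kept cells at 7 dpi. Mmp9 (75.9 against 2.07%), Tyrobp (79.3 against 16.9%) and Csf1r (44.8 against 3.55%) stand apart. Prrx1, Pdgfra, Dcn and Lum are below the other cells, while Col1a1 (100 against 96.6%) and Col2a1 (65.5 against 52.9%) are above them. No intervals are drawn.

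The genes past 2-fold in the MSC lineage were counted for each pair of libraries. At 1 dpi against uninjured, 6 of the 10 had 20 UMIs, and Tnfsf11 and Tnfrsf11b were at least 2-fold higher and Ctsk lower, when 15.9% of all genes tested passed in either direction. At 3 dpi against uninjured the same pair, Tnfsf11 and Tnfrsf11b, was higher among 6 genes, at a background of 24.6%. At 7 dpi against uninjured 6 of 9 genes (Tnfsf11, Tnfrsf11a, Tnfrsf11b, Acp5, Ocstamp and Atp6v0d2) were higher and Csf1 lower, at a background of 31.3%. Of these, Tnfrsf11a, Ocstamp and Atp6v0d2 had 20 UMIs in the pair only through the 7 dpi library, at or under 0.790 CPM, and the Tnfrsf11a level was read as background above, so nothing rests on these 3. Tnfsf11, with 10 uninjured UMIs, also reached 20 UMIs only through the later library in every comparison with uninjured. Its calls there add nothing beyond the counts given above. From 1 to 3 dpi only Tnfsf11 passed (background 13.6%). From 3 to 7 dpi 6 of 9 were higher, with the same limit for Tnfrsf11a, Ocstamp and Atp6v0d2, and Csf1 was lower (background 20.6%). Of these 6, Ctsk was below 2-fold after thinning and by the mean share per cell. Without Scrublet removal Tnfrsf11a and Ocstamp were below 2-fold in this comparison. With no cell filter Tnfsf11 and Tnfrsf11b at 1 dpi and Tnfrsf11b at 3 dpi were no longer past 2-fold.

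In monocytes and macrophages, Ctsk, Atp6v0d2 and Csf1 of 6 genes were past 2-fold at 1 dpi against uninjured (background 21.7%). None of 5 passed at 3 dpi (15.7%), and Acp5 and Ctsk of 5 passed at 7 dpi (7.86%). Ctsk and Atp6v0d2, with 9 and 2 uninjured UMIs, reached 20 UMIs only through the later library. Their calls against uninjured add nothing beyond the counts. The Ctsk and Acp5 calls at 7 dpi lean on the single cell named above, without which Acp5 fell short of 2-fold. After thinning, the 1 dpi ratios of Ctsk and Atp6v0d2 were 0.909 and 0.277 in place of 2.56 and 3.63. From 1 to 3 dpi, among 7 genes, Ocstamp was higher and Ctsk and Csf1 lower (11.9%). From 3 to 7 dpi, among 6 genes, Acp5, Ctsk and Atp6v0d2 were higher and Nfatc1 lower (14.4%). Of the last 4, Acp5 and Atp6v0d2 were 1.36 and 0.692 without the cells with 4 osteoclast genes, 1 cell holding 8 of the 11 Atp6v0d2 UMIs, and after thinning Atp6v0d2 was 0.689 and Nfatc1 0.551. In NK and T cells Tnfsf11 and Nfatc1 of 4 genes were past 2-fold at 1 dpi (22.1%), and Nfatc1 and Csf1 of 5 at 3 dpi (23.2%). Tnfsf11 and Csf1, with 15 and 10 uninjured UMIs, reached 20 UMIs only through the later library. These calls of Tnfsf11 and Csf1 add nothing beyond the counts.

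The genes known to induce Tnfsf11 in stromal cells were read in the MSC lineage as the first of the lists. At 3 dpi against uninjured 11 of 16 were at least 2-fold higher and 1 lower, with a median log2 ratio of 1.29 beside 0.12 over all genes, of which 24.6% passed. Vdr, the vitamin D receptor, went from 0.561 to 18.5 CPM (33.0 times, 24.4–45.6). Osm and Il1b, cytokines of leukocytes, stood at 12.2 and 6.92 times, and Il17a, a T cell cytokine with no UMI in the uninjured class, was at least 13.8-fold higher against a floor of 3 UMIs. Il17a thus passed the minimum only through the 3 dpi library. In this class and comparison 3 of 9 ligand and receptor genes were higher, all of them myeloid (Trem2, Tyrobp and Fcer1g), and 2 lower. The part of leukocyte transcripts in the count of 11 was not tested. Il6, named after its values were seen, went from 60.3 to 217 CPM (3.61 times, 3.49–3.73). Pthlh was the exception, 5.36-fold lower (4.81–5.98). At 1 dpi 6 of 15 were higher and 2 lower (background 15.9%). From 3 to 7 dpi the list turned, with 6 of 16 lower and 2 higher (background 20.6%): Il6 was 4.48-fold lower (4.31–4.66), Osmr 2.76-fold, Il1r1 2.64-fold and Vdr 2.12-fold. Pth1r, the receptor for parathyroid hormone, went the other way, from 20.02 to 95 CPM (4.75 times, 4.45–5.06). Tnfsf11 itself was 1.86 times higher over the same step.

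The other lists were read in the same way. In macrophages at 1 dpi against uninjured, 5 of 17 fusion and resorption genes were higher (background 21.7%), among them Plekhm1 (3.51 times, 2.23–5.88), Atp6v1c1 (3.04, 2.40–3.92) and Clcn7 (2.66, 1.83–3.999), which serve lysosomes in general as well as the osteoclast, and Mmp9 and Cd9 were lower. Car2, the highest of them, had 1 UMI uninjured and 35 at 1 dpi (4.09 times, 0.688–166). Of 17 signalling genes Tfec (2.75 times) and Rela (2.63 times) were higher and Fos 2.06-fold lower. At 7 dpi against uninjured none of 14 fusion and resorption genes and none of 16 signalling genes in macrophages passed 2-fold in either direction (background 7.86%). In the MSC lineage at 7 dpi (background 31.3%), 4 of 18 fusion and resorption genes were higher, and they included Mmp14, a protease of mesenchymal cells (158 to 594 CPM). Of 9 ligand and receptor genes tested there, 5 were higher and 3 lower, with Il34, the alternative ligand of the M-CSF receptor, at 17.2 and 4.14 CPM. The higher ones included Trem2, Tyrobp, Fcer1g and Csf1r, which are myeloid genes. Of 11 repressors of osteoclast formation, 7 could be tested and 3 were higher and 2 lower.

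The genes whose level was most like each gene across 43 combinations of class and library were named by Pearson's r of log2(CPM + 10), as a description, since points of a library share its depth. For Tnfsf11 they were Camk4 (0.904), Tcrg-C1 (0.889) and Tcrg-C4 (0.882), all transcripts of T cells. For Tnfrsf11a they were P2ry6 (0.854), Gdf15 (0.845) and Ms4a6d (0.838), and for Tnfrsf11b Col8a2 (0.899), Mfap4 (0.893) and Clec11a (0.891). For Ctsk they were Scarf2 (0.950), Col1a1 (0.949) and Mmp23 (0.946), while for Acp5 they were Gm9887 (0.822), Gpr183 (0.822) and Rasgrp1 (0.813). For Csf1 the nearest was Steap4 (0.798), for Nfatc1 Lrp10 (0.766), for Ocstamp Clec4b1 (0.889) and for Atp6v0d2 Fxyd2 (0.708). Dcstamp, with 93 UMIs in all, was not ranked.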

How the data were processed

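Single-cell gene expression was measured in 4 libraries, 1 for each of the uninjured, 1, 3 and 7 dpi groups. The deposited values were UMI counts per gene and cell, which the authors made with Cell Ranger 5.0.0 and the STAR aligner on mm10. The processing notes also name Seurat 3.1.1. The protocol mentions down-sampling of reads, and whether the counts precede it is not given in the sources used here. Positions were read from the GRCm38 annotation, and start-site windows from RefSeq.

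Cells beyond 2 SD of log10 UMIs or genes, or over 10% mitochondrial UMIs, were removed per library, followed by the 7.5% with the highest Scrublet score (scanpy 1.11.5). Classes required a marker score of at least 0.2 and 1.25 times the best score outside the family, and a mesenchymal cell with a chondrocyte score of at least 0.35 was a chondrocyte. At 7 dpi 1917 of 17050 mesenchymal cells had a chondrocyte score within 0.1 of that limit. UMIs were summed per class and library. Intervals were exact Poisson for CPM, conditional binomial for ratios and Clopper-Pearson for shares, at 95% (scipy 1.17.1), and a level of 0 was read against a floor of 3 UMIs. With 1 library per group no p-value was computed. The interval was tested on simulated counts for 16269 genes of the MSC lineage at 7 dpi against uninjured. Of the 200 genes changed in the simulation, 96.5% had the true ratio inside it. The interval still covers counting error only, and not differences between libraries.

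All 10 genes are named. Of the 5 lists, at most the 4 genes with the largest ratio are named per comparison, apart from those said to be chosen after their values were seen. The genes, lists, subsets and markers were chosen with earlier results of these data known.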

Additional observations from a re-analysis of the deposited data

Results flagged for a closer look

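Ctsk had ratios on opposite sides of 1 in MSC lineage cells and in monocytes and macrophages at full depth. At 1 dpi against uninjured its ratio was 0.414 (0.400–0.428) in the former and 2.56 (1.32–5.68) in the latter, and at 3 dpi against 1 dpi it was 1.22 (1.17–1.27) and 0.390 (0.241–0.602). The macrophage levels behind these ratios were 6.36, 16.3 and 6.34 CPM, and B cells of the same libraries had 5.34, 2.76 and 6.90. After thinning, the macrophage ratios were 0.909 and 0.567. The uninjured macrophages had 9 Ctsk UMIs at full depth, too few after thinning to place the first ratio on either side of 1.

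Csf1 at 3 dpi against 1 dpi was 1.09 (1.06–1.11) in the MSC lineage and 0.336 (0.238–0.464) in macrophages. Nfatc1 at 7 dpi against 3 dpi was 1.07 (1.01–1.14) in the MSC lineage and 0.438 (0.249–0.725) in macrophages, from 17 UMIs in the 7 dpi macrophages. In each of these 4 comparisons the counting intervals of the classes lay on opposite sides of 1. The difference between the classes was not tested, since each time point had 1 library.

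Some barcodes removed by the filters also had UMIs of at least 4 of the 6 osteoclast genes. There were 3 at 3 dpi and 11 at 7 dpi, against 0 of 1724 removed barcodes uninjured and 0 of 2081 at 1 dpi. All 3 at 3 dpi and 1 of the 11 at 7 dpi had a Scrublet score in the range removed as likely doublets. A doublet can join the genes of different cells, so these barcodes were not read as cells with several osteoclast genes. At 7 dpi the 11 were 0.319% of 3451 removed barcodes (0.159–0.570), and 6 of them had at least 5 of the genes.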

How the results depend on the processing

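No paired analysis was possible because each time point has 1 library, and no library could be left out for the same reason. The alternatives without cells with 4 osteoclast genes, without cells with Sp7 or Ibsp, and with class by highest score were chosen after seeing the data. A minimum of 50 UMIs left 55 ratios as reported and could not move them. With these included, over 65 ratios, 557 alternative values stayed within the counting interval of the reported value, 110 moved and 6 changed direction. The latter were Tnfsf11 in the MSC lineage at 1 dpi against uninjured without Sp7 or Ibsp cells (0.662), and in macrophages, after thinning, Ctsk (0.909) and Atp6v0d2 (0.277) at 1 dpi against uninjured and Atp6v0d2 at 7 against 3 dpi (0.689, with 0.980 under a stricter gate and 0.692 without cells with 4 osteoclast genes). The 1 dpi macrophage values after thinning stand on 9 Ctsk and 2 Atp6v0d2 UMIs in the uninjured class at full depth. A thinned count of 0 is set to 3 UMIs, so these values do not measure a fall. The cause of the other changes was not tested.

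At 7 dpi against uninjured in the MSC lineage, the mean share per cell gave 160 for Tnfsf11, 16.3 for Tnfrsf11b, 3.26 for Acp5 and 1.04 for Ctsk. Thinning gave 30.7, 37.9, 3.25 and 1.01, and for Tnfrsf11a in macrophages at 1 dpi 5.10 in place of 1.67. The value of 5.10 stands on the very few thinned UMIs of 180 uninjured macrophages. Those of 30.7 and 37.9 stand on very few thinned UMIs of the uninjured MSC lineage. No cell filter gave 12.7 for Tnfsf11, 7.73 for Tnfrsf11b and 0.390 for Csf1, and SD limits on linear counts gave 1.14 for Ctsk. Leaving out Sp7 or Ibsp cells gave 10.9 for Tnfrsf11b, 2.79 for Acp5, 1.17 for Ctsk and 0.401 for Csf1, and the highest score gave 0.358 for Csf1.

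The number of the 10 genes past the threshold in the MSC lineage, 3, 2 and 7 at 1, 3 and 7 dpi against uninjured, 1 at 3 against 1 dpi and 7 at 7 against 3 dpi, became 5, 5 and 2 at 1.5-fold for 1 and 3 dpi against uninjured and 3 against 1 dpi. At 3-fold the first 2 became 1 and 1. With no UMI minimum it was 5 at 1 dpi against uninjured and 2 at 3 against 1 dpi, and after thinning 1 at 1 dpi, 4 at 7 dpi and 4 at 7 against 3 dpi. In macrophages the numbers were 3, 0, 2, 3 and 4 for the same comparisons. At 1.5-fold they were 5, 1 and 5 for 1 and 3 dpi against uninjured and 3 against 1 dpi, at 3-fold 1 in all but 3 dpi against uninjured, with no minimum 5 and 1 for the first 2, and after thinning 1, 1, 1, 0 and 1. Without cells with 4 osteoclast genes they were 1 at 7 dpi against uninjured and 2 at 7 against 3 dpi. The share of all genes that pass was worked out only for 2-fold with at least 20 UMIs. The counts under the other rules therefore have no background beside them and are not read as a result about the 10 genes.

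Tnfsf11 per Tnfrsf11b was 0.227 uninjured with no cell filter, 0.0199 at 1 dpi and 0.431 at 7 dpi without Sp7 or Ibsp cells, and 0.341 at 7 dpi by highest score. Cells with at least 3 osteoclast genes numbered 215 uninjured and 212 at 3 dpi with no cell filter. Requiring 4 genes gave 0, 3, 3 and 29, and thinning 0, 0, 2 and 35.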

Other observations

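Bglap, the osteocalcin gene of mature osteoblasts, had 15194 UMIs over all barcodes at 1 dpi, of which 15055 were in 10 barcodes, and 20, 29 and 266 over all barcodes uninjured, at 3 and at 7 dpi. Of those 10 barcodes 4 passed the cell filters. None of the 10 carried Tnfsf11, while they held 3 UMIs of Tnfrsf11b, 2 of Csf1 and 50 of Ctsk. The cells behind the 1 dpi Tnfsf11 value were therefore other cells than those behind the Bglap value.

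In erythroid cells, a class of 10 to 66 cells per library, Acp5 stood at 279 CPM at 1 dpi (54 UMIs), 110 at 3 dpi (20 UMIs) and 47.1 at 7 dpi (7 UMIs), with 0 UMIs in 13 cells uninjured. Csf1 in neutrophils stood at 88.3 CPM uninjured (56.0–133), 49.9 at 1 dpi (42.8–57.8), 46.3 at 3 dpi (34.4–61.0) and 187 at 7 dpi (125–269). Endothelial cells had Nfatc1 at 46.3, 75.0, 125 and 58.7 CPM from 5, 23, 47 and 17 UMIs.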
